A study of Rattus norvegicus with 6 samples.

Results

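The nuclear-encoded subunits of the respiratory chain and ATP synthase were examined, complex by complex, in rat adipose-derived mesenchymal stem cells, which are stromal cells grown from the fat of Sprague Dawley rats. Members were rows of the gene table picked by symbol. For complex I these were Nduf followed by a, b, c, s or v and a number, and for complex II Sdha to Sdhd. For complexes III, IV and V they were Uqcr genes and Cyc1, Cox4 to Cox8 genes, and Atp5 genes. The Ndufaf assembly factors were left out. The rule also takes in symbols classed here as paralogs or assembly proteins (Ndufa4l2, Ndufa10l1, Ndufb4l1, Cox7a2l, Cox6c-ps1, Atp5s and Atp5sl). This gave 87 of 21857 rows: 38 for complex I, 4 for complex II, 9 for complex III, 19 for complex IV and 17 for complex V. A filter on low counts left 78 of them to be tested, among 12298 genes tested in all. The BCAA group (3 libraries) received 3.432 mM branched chain amino acids (leucine, isoleucine and valine) for 12 h, and the vehicle group (3 libraries) received vehicle for the same time. Both groups were kept in high-glucose medium made without these amino acids, with serum and antibiotics, and both were exposed to 100 µM hydrogen peroxide. All groups analysed here had hydrogen peroxide, and the labels do not say whether the libraries of a group came from separate animals or cultures, so the tests measure the spread between libraries, which may be technical.

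The respiratory chain sits in the inner mitochondrial membrane. Complexes I and II pass electrons from NADH and succinate to coenzyme Q, complex III passes them through cytochrome c to complex IV, and complex IV reduces oxygen; complexes I, III and IV pump protons, and ATP synthase (complex V) uses the resulting gradient to make ATP. Mitochondrial DNA encodes a small set of the subunits of complexes I, III, IV and V, while the genes described here are nuclear, and complex II is entirely nuclear. Branched chain amino acids are broken down in mitochondria, and their breakdown feeds electrons into this chain.

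Library totals ran from 12725344 to 15739731 counts. All 10 stromal marker genes found in the table (among them Thy1, Nt5e, Eng and Cd44) were well above the filter, and some markers of other cell types were counted too. Of 7 adipocyte markers 3 were tested, Lpl (4553 to 6186 counts), Fabp4 (57 to 89) and Cfd (1 to 12), while Adipoq, Plin1, Lep and Cidec had 0 to 8 counts. Of 5 brown adipocyte markers 2 were tested, Cidea (23 to 56 counts) and Ppargc1a (6 to 13), and Ucp1 was at 0 in every library. Of 8 leukocyte markers 6 were tested, with Lyz2 at 8211 to 11321 counts, Cd68, Adgre1, Csf1r and Ptprc at 180 to 483 counts, Cd163 at 6 to 18, and Cd3e at 0. Vehicle replicate 1 stood apart on the first principal component (29.1% of the variance, score 26.8, against -15.2 to 0.54 for the other 5 libraries), and mitochondrially encoded genes took 6.58% of its counts, against 4.91% to 6.24% elsewhere. The summed levels and medians of the complexes, and the members that moved most with this library, are also given without it.

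The subunit genes lay slightly lower with BCAA in complexes I, III, IV and V, and no single gene passed the threshold. Summed over all members, the level was 7528, 7910 and 8009 CPM (read counts scaled to a common library size) in BCAA libraries 1 to 3, against 8780, 8430 and 8359 CPM in vehicle libraries 1 to 3. Every BCAA library lay below every vehicle library. The BCAA libraries averaged 7816 ± 254 CPM and the vehicle libraries 8523 ± 225 CPM (SD, n = 3 each), a difference of -8.30%, or -6.89% without vehicle replicate 1. In bulk RNA, fewer cells that express a gene and less RNA per cell cannot be told apart. Of the 78 members tested with edgeR's quasi-likelihood test, 0 passed an adjusted p of 0.05, where 0.228% of all genes tested did. All genes tested had 0.171% called lower and 0.0569% called higher. At an unadjusted p under 0.05, 23 members were lower with BCAA, against 5.84% of all genes tested, and 0 were higher, against 5.95%. DESeq2 called 1 member, Uqcrq, lower and 0 higher, against 0.998% lower and 0.755% higher among the genes to which it gave an adjusted p. In sign, 71 of 78 members were lower, where 49.2% of all genes were, and the median log2 fold change was -0.15 over the members and 0.00 over all genes tested. Without the paralogs and assembly proteins, 67 of 73 members were lower in sign (median -0.16).

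**Figure D1:**
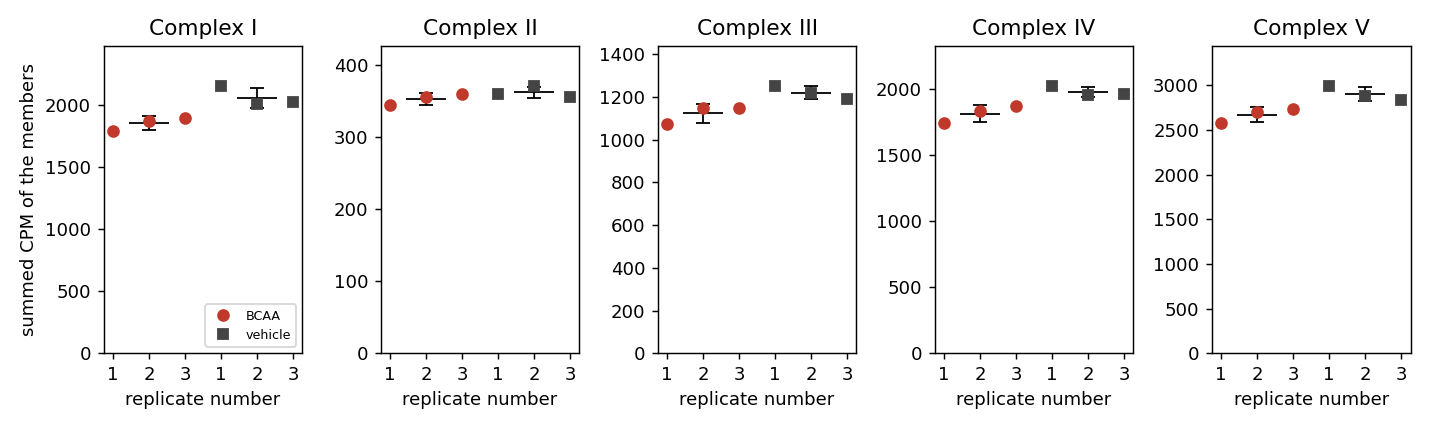
Summed CPM of the members of each complex in each library; red circles are BCAA libraries, grey squares vehicle libraries, and the bars give mean and SD of 3 libraries. In complexes I, III, IV and V all BCAA points lie below all vehicle points, while in complex II the groups overlap. For complex III, where Uqcrq weighs most on the sum, the medians over its members overlap between groups.

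Promoter sequences are shown for the member with the smallest p in each complex, since nuclear respiratory genes are known to share binding sites for NRF1 and for the ETS factor GABP. Windows are the 250 bases before the annotated gene start in RefSeq (build GRCr8), 5′ to 3′ on the gene's strand, with matches to the palindromic NRF1 consensus or the ETS motif CCGGAAG, on either strand, in capitals. The Ndufb6 window is chr5:60206153-60206402 (minus strand), the Sdhc window chr13:86098026-86098275 (minus strand). The Uqcrq window is chr10:38089979-38090228 (minus strand), the Cox7c window chr2:18579171-18579420 (minus strand) and the Atp5i window (RefSeq symbol Atp5me) chr14:1464610-1464859 (plus strand).
Ndufb6: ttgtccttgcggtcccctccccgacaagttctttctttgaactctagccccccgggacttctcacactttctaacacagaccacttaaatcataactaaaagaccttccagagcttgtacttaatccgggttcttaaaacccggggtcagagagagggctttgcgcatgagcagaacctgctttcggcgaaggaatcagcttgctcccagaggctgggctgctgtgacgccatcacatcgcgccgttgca
Sdhc: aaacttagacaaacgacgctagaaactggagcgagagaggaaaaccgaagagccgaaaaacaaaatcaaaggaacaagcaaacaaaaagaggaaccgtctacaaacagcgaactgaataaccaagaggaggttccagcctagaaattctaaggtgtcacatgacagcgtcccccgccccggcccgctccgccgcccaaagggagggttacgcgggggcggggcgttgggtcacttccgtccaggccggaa
Uqcrq: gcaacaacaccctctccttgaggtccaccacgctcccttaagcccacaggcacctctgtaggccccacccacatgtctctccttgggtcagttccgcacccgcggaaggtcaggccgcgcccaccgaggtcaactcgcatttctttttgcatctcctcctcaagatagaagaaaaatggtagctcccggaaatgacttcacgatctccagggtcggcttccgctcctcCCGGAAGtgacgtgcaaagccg
Cox7c: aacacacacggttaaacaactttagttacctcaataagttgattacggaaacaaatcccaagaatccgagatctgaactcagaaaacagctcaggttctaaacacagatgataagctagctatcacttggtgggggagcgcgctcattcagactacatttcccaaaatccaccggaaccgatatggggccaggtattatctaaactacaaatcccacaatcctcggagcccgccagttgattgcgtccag
Atp5i: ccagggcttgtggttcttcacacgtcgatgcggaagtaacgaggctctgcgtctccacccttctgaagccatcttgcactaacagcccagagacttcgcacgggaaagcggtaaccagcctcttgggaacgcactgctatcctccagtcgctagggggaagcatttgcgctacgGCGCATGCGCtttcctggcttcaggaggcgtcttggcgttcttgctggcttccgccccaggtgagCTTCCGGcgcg
The Uqcrq window holds the ETS letters, whose first base is 22 bases before the start. The Atp5i window holds both motifs, the NRF1 match starting 76 bases and the ETS match 11 bases before the start. Neither set of letters is in the Ndufb6, Sdhc and Cox7c windows.

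Of the 78 tested members, 66 had a promoter window in that table (250 bases before to 50 after the start). The NRF1 letters were in 13 of them (19.7%), against 10.3% of the 9659 windows of all tested genes and 4.71% of all 27457 windows. The ETS letters were in 19 (28.8%), against 18.1% and 9.22%. By complex, the NRF1 letters were in 6 of 32 windows of complex I, 1 of 4 of complex II, 1 of 6 of complex III, 0 of 10 of complex IV and 5 of 14 of complex V. Members with the NRF1 letters had a median log2 fold change of -0.17 and those without -0.16, and for the ETS letters the medians were -0.14 and -0.17. Members with and without each motif thus had similar median differences between the groups, and a match is a description of letters, not of binding.

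Complex I, the NADH dehydrogenase and the largest of the complexes, had the lowest median. Its summed level was 1789, 1873 and 1898 CPM in BCAA libraries 1 to 3, against 2153, 2007 and 2021 CPM in vehicle libraries 1 to 3, a difference of -10.1%. Vehicle replicate 1 was the highest library, and the other vehicle libraries still lay above all BCAA libraries (-7.99% without it). Of 36 members tested, 34 were lower in sign, where 49.2% of all genes were. At an unadjusted p under 0.05, 13 were lower, against 5.84% of all genes, and the median log2 fold change was -0.17. Without vehicle replicate 1 the median was -0.14 and the count at that p was 10, where 9.5% of all genes were lower at that p. The count was 8 without BCAA replicate 1 (4.03% of all genes) and 7 without BCAA replicate 2 (4.32%), against 5.84% of all genes in the fit of all libraries.

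Ndufb6, Ndufb8 and Ndufb9, all supernumerary subunits of the membrane arm, had the smallest p of complex I. Ndufb6 was at 23.4, 23.6 and 23.6 CPM in the BCAA libraries, against 24.5, 31.9 and 35.7 CPM in the vehicle libraries (log2 fold change -0.38, SE 0.12, adjusted p = 0.246). Its BCAA values were nearly equal, and vehicle replicate 1 was close to them while the other vehicle libraries were well above. Ndufb8 was at 78.0, 78.3 and 75.2 CPM in the BCAA libraries, against 92.0, 90.01 and 84.7 CPM in the vehicle libraries (-0.20, SE 0.07, adjusted p = 0.272). Ndufb9 was at 68.2, 73.2 and 76.2 CPM with BCAA, against 94.5, 85.8 and 78.8 CPM with vehicle (-0.25, SE 0.08, adjusted p = 0.246). For both, the groups did not overlap. Ndufa4l2, a paralog of Ndufa4 that is known to be induced by hypoxia, was next, at 18.5, 20.4 and 17.9 CPM in the BCAA libraries, against 24.5, 23.2 and 21.9 CPM in the vehicle libraries (-0.29, SE 0.10, adjusted p = 0.297), again without overlap.

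The core subunits of complex I carry its flavin, iron-sulfur clusters and quinone site, and the supernumerary ones surround that core. All 7 nuclear core subunits were lower in sign (median log2 fold change -0.16; Ndufs1 turned to 0.01 without TMM scaling), with 1 of them, Ndufv2, at an unadjusted p under 0.05. Of 26 supernumerary subunits 24 were lower in sign (median -0.19) and 11 were so at that p. Among all genes 49.2% were lower in sign and 5.84% were lower at that p. Ndufs1, the largest core subunit, was at 90.3, 88.3 and 80.4 CPM with BCAA, against 88.8, 87.8 and 86.4 CPM with vehicle (-0.02, SE 0.07, adjusted p = 0.936). Ndufv1, which binds NADH, was at 75.7, 80.6 and 80 CPM with BCAA, against 75.7, 83.5 and 91.3 CPM with vehicle (-0.08, SE 0.08, adjusted p = 0.736). In both the groups overlapped. Without vehicle replicate 1 the median was -0.14 for the core genes, with 2 at that p, and -0.13 for the supernumerary genes, with 7. In that fit 9.5% of all genes were lower at that p, and Ndufv1 was at -0.15. Without BCAA replicate 1 or 2, the supernumerary genes at that p were 7 or 5, where 4.03% or 4.32% of all genes were lower. The difference between the classes was not tested.

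The widest differences in complex I, chosen after their values were seen, were in lowly counted or variable genes. Ndufa12 was at 6.95, 3.29 and 4.15 CPM with BCAA, against 9.52, 5.52 and 8.93 CPM with vehicle (-0.73, SE 0.27, adjusted p = 0.307), and the groups overlapped. Ndufs5 was at 25.4, 18.4 and 22.6 CPM with BCAA, against 40.2, 22.4 and 31.3 CPM with vehicle (-0.50, SE 0.19, adjusted p = 0.346), also with overlap, and at -0.27 without vehicle replicate 1. Ndufa4, whose protein is now placed in complex IV, was near equal between the groups (0.00, SE 0.07), as was Ndufa9 (0.00, SE 0.08). Ndufa13, also chosen after its values were seen, had the largest SE of complex I after Ndufa12, with 25.9 CPM in vehicle replicate 1 against 50.9 and 41.3 CPM in the other vehicle libraries, and 32.9 to 41.2 CPM with BCAA. Without vehicle replicate 1 its log2 fold change was -0.27, against -0.04 in the fit of all libraries.

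**Figure D2:**
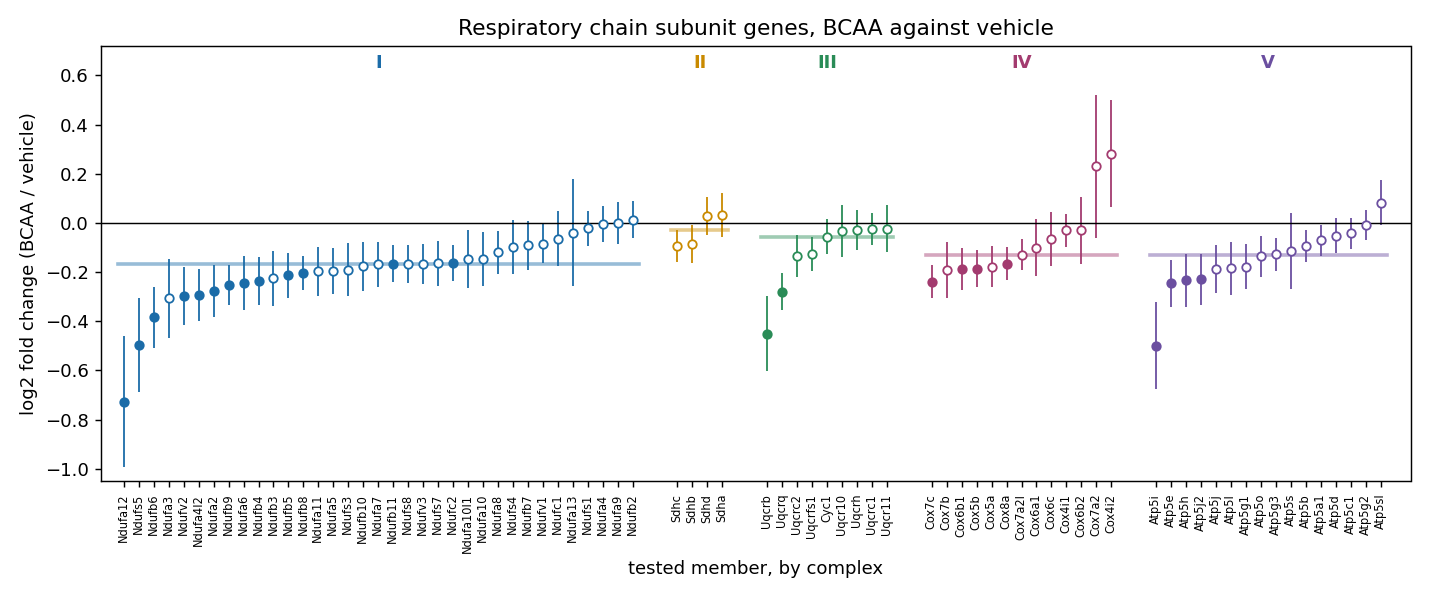
Log2 fold change (BCAA over vehicle) of 77 of the 78 tested members, grouped by complex and ordered within it; vertical lines are SE, horizontal bars the median of all tested members of each complex, and filled points have an unadjusted p under 0.05. Of the 77 points 70 lie below 0 and all 23 filled ones are among them. Over all 78 members 71 were lower in sign, against 49.2% of all genes tested. Without TMM scaling 64 were, against 42.0%.

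Complex II, succinate dehydrogenase, lay closest to 0. Its summed level was 344, 356 and 360 CPM in BCAA libraries 1 to 3, against 361, 371 and 356 CPM in vehicle libraries 1 to 3, and the groups overlapped. The difference was -2.50%, or -2.73% without vehicle replicate 1. Sdhc, a membrane anchor, was at 107, 105 and 112 CPM with BCAA, against 118, 115 and 113 CPM with vehicle (log2 fold change -0.09, SE 0.07, adjusted p = 0.622). The iron-sulfur subunit Sdhb was at 83.8, 84.5 and 92.8 CPM with BCAA, against 99.5, 90.6 and 86.7 CPM with vehicle (-0.09, SE 0.08, adjusted p = 0.710). Sdhc did not overlap between groups and Sdhb did. The flavoprotein gene Sdha (0.03, SE 0.09) and the other anchor gene Sdhd (0.03, SE 0.08) were slightly higher in sign, with adjusted p of 0.922 and 0.915. The median of the 4 genes was -0.03 and turned to 0.00, on the positive side, without TMM scaling. Leaving out vehicle replicate 1 put Sdhb at -0.03, Sdha at -0.06 and the median at -0.04. Whether complex II differs from the other complexes was not tested.

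Complex III, the cytochrome bc1 complex, held the member with the smallest p of all. Uqcrq, a small subunit next to cytochrome b, was at 194, 220 and 188 CPM in the BCAA libraries, against 226, 251 and 254 CPM in the vehicle libraries (log2 fold change -0.28, SE 0.08, adjusted p = 0.145). The groups did not overlap, and its adjusted p was 0.0491 with DESeq2 and 0.00352 without vehicle replicate 1, and ran from 0.00352 to 0.460 over all settings. Uqcrb, another small subunit, was at 43.8, 44.0 and 50.8 CPM with BCAA, against 81.6, 53.0 and 54.5 CPM with vehicle (-0.45, SE 0.15, adjusted p = 0.288). Vehicle replicate 1 was far above the rest, and without it the log2 fold change was -0.22.

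The redox subunits of complex III and its core proteins overlapped between groups. The Rieske iron-sulfur protein gene Uqcrfs1 was at 154, 161 and 168 CPM with BCAA, against 189, 173 and 164 CPM with vehicle (-0.13, SE 0.07, adjusted p = 0.509). Cyc1, cytochrome c1, was at 116, 120 and 124 CPM with BCAA, against 117, 133 and 125 CPM with vehicle (-0.06, SE 0.07, adjusted p = 0.807). Uqcrc2, a core protein, was at 84.2, 84.3 and 87.6 CPM with BCAA, against 107, 87.7 and 86.8 CPM with vehicle (-0.14, SE 0.08, adjusted p = 0.566). Leaving out vehicle replicate 1 put Uqcrc2 at -0.03, Uqcrfs1 at -0.07 and Cyc1 at -0.10. All 9 members were lower in sign (median -0.06), with 2 at an unadjusted p under 0.05, where the shares of all genes were 49.2% and 5.84%. Without TMM scaling 5 of them were lower in sign (median -0.03), where 42.0% of all genes were. The 4 members not named here had log2 fold changes of -0.03 to -0.02 with TMM scaling. Summed, complex III was at 1072, 1150 and 1147 CPM in the BCAA libraries, against 1251, 1219 and 1190 CPM in the vehicle libraries (-7.93%). Without vehicle replicate 1 the difference was -6.74% and the median was -0.07. Uqcrq had the highest CPM of these members in every library, so it weighs most on the sum. The median over the members of log2 CPM minus its mean over the libraries overlapped between groups. It was -0.103, -0.031 and 0.0 in BCAA libraries 1 to 3, against 0.039, 0.044 and -0.028 in vehicle libraries 1 to 3.

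Complex IV, cytochrome c oxidase, has its catalytic subunits in mitochondrial DNA, so the genes here encode the subunits around them. Cox7c was at 151, 153 and 161 CPM in the BCAA libraries, against 194, 181 and 174 CPM in the vehicle libraries (log2 fold change -0.24, SE 0.07, adjusted p = 0.161). Cox8a was at 144, 148 and 142 CPM with BCAA, against 153, 167 and 168 CPM with vehicle (-0.17, SE 0.07, adjusted p = 0.345). Neither gene overlapped between groups. Cox5b, a zinc-binding subunit, was at 79.6, 77.6 and 70.0 CPM with BCAA, against 86.7, 88.6 and 83.1 CPM with vehicle (-0.19, SE 0.07, adjusted p = 0.346), without overlap. Cox6b1, which faces the intermembrane space, was at 134, 142 and 162 CPM with BCAA, against 184, 157 and 158 CPM with vehicle (-0.19, SE 0.09, adjusted p = 0.414), with overlap. These 4 were the complex IV genes at an unadjusted p under 0.05, where 5.84% of all genes were lower. The count was 1 without TMM scaling, where 3.85% were. Cox6b1 was at -0.11 without vehicle replicate 1.

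Of 13 complex IV members tested, 11 were lower in sign (median -0.13), where 49.2% of all genes were. The summed level was 1743, 1831 and 1870 CPM with BCAA, against 2023, 1952 and 1962 CPM with vehicle. The difference was -8.29%, or -7.26% without vehicle replicate 1, where the median was -0.08. Cox4i1, the regulatory subunit common to most tissues, was at 330, 334 and 353 CPM with BCAA, against 364, 322 and 354 CPM with vehicle (-0.03, SE 0.07, adjusted p = 0.891). Its groups overlapped. Cox7a2l, which helps join complexes III and IV into supercomplexes and was chosen after its values were seen, was at 272, 282 and 287 CPM with BCAA, against 325, 297 and 297 CPM with vehicle (-0.13, SE 0.06, adjusted p = 0.449), without overlap.

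Tissue-type isoforms of complex IV were scarce or at 0. Cox7a1 and Cox8b, forms of heart and skeletal muscle, had 0 counts in all 6 libraries, as had Cox7b2, Cox8c and Cox6c-ps1. The muscle form Cox6a2 had 9, 6 and 5 counts in BCAA libraries 1 to 3, against 6, 6 and 1 in vehicle libraries 1 to 3, and was not tested. Cox4i2, a form known from lung and induced by low oxygen, was at 4.99, 4.82 and 4.38 CPM with BCAA, against 4.94, 3.81 and 2.90 CPM with vehicle (0.28, SE 0.22, adjusted p = 0.653), with overlap. Its share of the Cox4i1 and Cox4i2 counts, not corrected for transcript length, was 1.38% ± 0.136 with BCAA and 1.11% ± 0.269 with vehicle (SD, n = 3 each). Cox6b2, the testis form, made up 7.17% ± 0.556 of the Cox6b1 and Cox6b2 counts with BCAA and 6.51% ± 0.613 with vehicle (SD, n = 3 each). Its own level was near equal (-0.03, SE 0.14, adjusted p = 0.954), and its share differed by about the spread between libraries.

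ATP synthase has a catalytic F1 head, a rotating ring of c subunits and a stalk with small membrane subunits. Summed over its members it was at 2580, 2699 and 2733 CPM in the BCAA libraries, against 2992, 2881 and 2830 CPM in the vehicle libraries, with no overlap. The difference was -7.93%, or -6.47% without vehicle replicate 1. Of 16 members tested 15 were lower in sign (median log2 fold change -0.13) and 4 were so at an unadjusted p under 0.05. The shares of all genes were 49.2% and 5.84%. The member that was higher in sign, Atp5sl (0.08, SE 0.09), is classed here as an assembly protein and is named after its value was seen. Without vehicle replicate 1 the median was -0.07. Without BCAA replicate 1 or 2 the count at that p was 1, where 4.03% or 4.32% of all genes were lower. Atp5b and Atp5a1 form the catalytic hexamer. Atp5b was at 696, 725 and 713 CPM with BCAA, against 708, 808 and 762 CPM with vehicle (-0.09, SE 0.06, adjusted p = 0.603). Atp5a1 was at 328, 346 and 334 CPM with BCAA, against 333, 372 and 353 CPM with vehicle (-0.07, SE 0.06, adjusted p = 0.707). Both overlapped between groups, and without vehicle replicate 1 Atp5b was at -0.14 and Atp5a1 at -0.11.

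The small subunits of the stalk and membrane part lay lower, and each was highest in vehicle replicate 1. Atp5i (subunit e) was at 39.9, 33.5 and 33.6 CPM in the BCAA libraries, against 67.5, 40.6 and 43.3 CPM in the vehicle libraries (log2 fold change -0.50, SE 0.18, adjusted p = 0.315). The groups were just apart, and the log2 fold change was -0.23 without vehicle replicate 1. Atp5j2 (subunit f) was at 108, 116 and 111 CPM with BCAA, against 159, 119 and 115 CPM with vehicle (-0.23, SE 0.10, adjusted p = 0.415). Atp5h (subunit d of the stalk) was at 179, 182 and 205 CPM with BCAA, against 268, 204 and 192 CPM with vehicle (-0.23, SE 0.11, adjusted p = 0.423). Both overlapped, since only vehicle replicate 1 stood well above the BCAA values, and without it Atp5j2 was at -0.06 and Atp5h at -0.07. Atp5e, the epsilon subunit of the F1 head, was at 82.7, 86.4 and 88.2 CPM with BCAA, against 119, 88.8 and 97.4 CPM with vehicle (-0.24, SE 0.10, adjusted p = 0.333), and the groups were just apart. It was at -0.12 without vehicle replicate 1. Of the 6 stalk and membrane genes tested all were lower in sign (median -0.21), against a median of -0.07 for the 5 genes of the F1 head. Without vehicle replicate 1 the order was the other way round, with a median of -0.07 for the stalk and membrane genes, against -0.11 for the F1 head, and the difference was not tested in either case.

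The Atp5g genes encode the same mature c subunit with different import sequences. Atp5g1 was at 75.2, 84.7 and 81.8 CPM with BCAA, against 78.1, 98.01 and 97.3 CPM with vehicle (-0.18, SE 0.09, adjusted p = 0.472). Atp5g2 was at 209, 212 and 216 CPM with BCAA, against 205, 218 and 219 CPM with vehicle (-0.01, SE 0.06, adjusted p = 0.967). Atp5g3 was at 186, 198 and 202 CPM with BCAA, against 228, 202 and 210 CPM with vehicle (-0.13, SE 0.07, adjusted p = 0.487). Atp5g3 was the only one of them whose groups did not overlap, by a narrow gap, and Atp5g2 was level between groups. As shares of the counts of the 3 genes, Atp5g2 took 43.5% ± 0.848 with BCAA and 41.2% ± 1.04 with vehicle, and Atp5g1 took 16.5% ± 0.590 with BCAA and 17.6% ± 1.98 with vehicle (SD, n = 3 each).

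**Figure D3:**
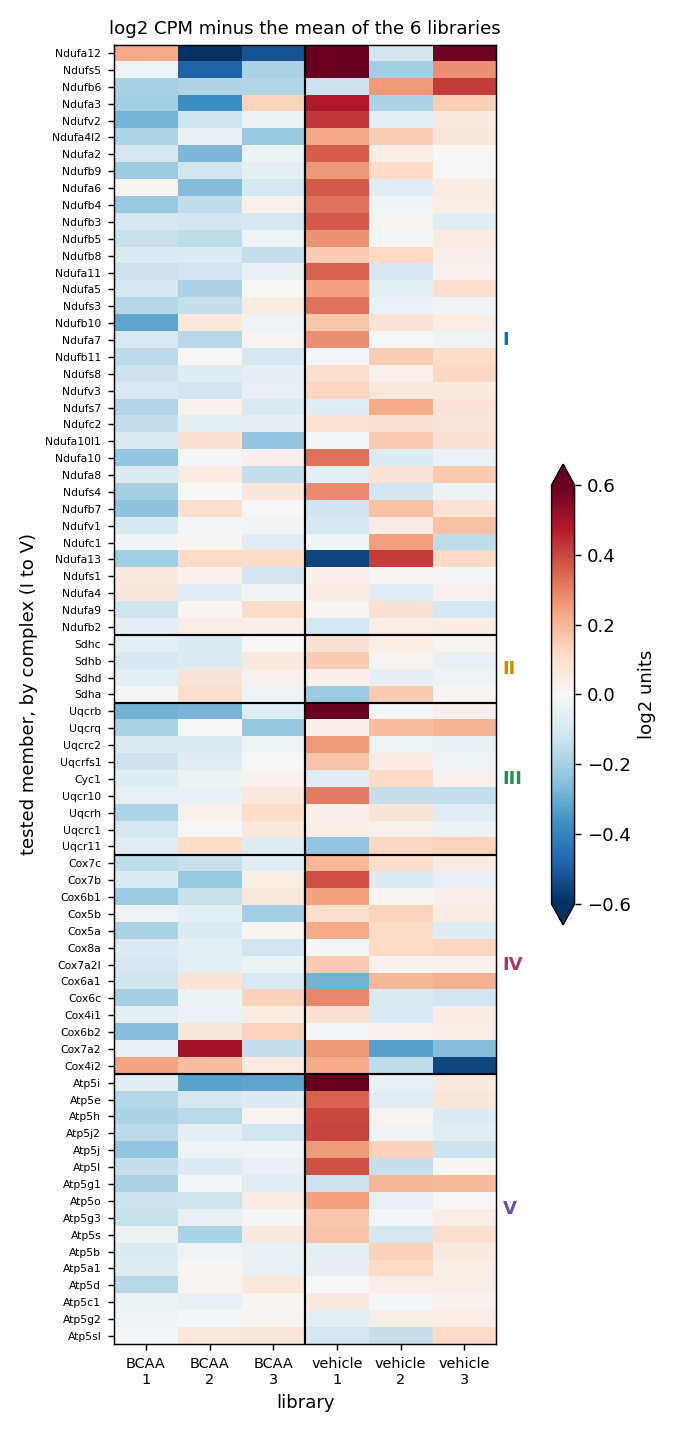
Log2 CPM of each of 77 tested members minus its mean over the 6 libraries (red above, blue below; colours saturate at 0.6 log2 units), with libraries in columns and members in rows by complex. The column of vehicle replicate 1 holds most of the strongest red, and also blue for Ndufa13, Cox6a1 and Uqcr11.

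Vehicle replicate 1 carried a large part of the spread among the members. It was the highest of the 6 libraries for 43 of 78 members, against 23.6% of all genes tested, and the lowest for 6, against 24.7%. The median of its log2 level minus that of the other vehicle libraries was 0.11 over the members, 0.44 over the stalk and membrane genes of ATP synthase, 0.21 over the supernumerary genes of complex I, and 0.03 over its core genes. Over all genes tested it was within 0.01 of 0. Groups did not overlap for 20 members, all with BCAA below, against 8.76% of all genes in that direction, and 0 members had BCAA above, against 9.29%.

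Without vehicle replicate 1 the members were still mostly lower, and other genes passed the threshold. The median log2 fold change over the 78 members was -0.10, and 68 were lower in sign, against 48.5% of all genes. At an unadjusted p under 0.05, 20 were lower, against 9.5% of all genes in that fit, and 2 were higher, against 8.74%, namely Uqcr10 (0.13, SE 0.06) and Cox4i2 (0.49, SE 0.23). In that fit 5 members passed an adjusted p of 0.05, all lower, against 2.2% of all genes called lower and 1.73% called higher. They were Ndufb6 (log2 fold change -0.52, adjusted p = 0.00348), Uqcrq (-0.33, adjusted p = 0.00352), Cox6a1 (-0.24, adjusted p = 0.0191), Atp5g1 (-0.28, adjusted p = 0.0214) and Cox8a (-0.21, adjusted p = 0.0376). All 5 were lower in vehicle replicate 1 than in the other vehicle libraries. Cox6a1, the common form of subunit 6a, was at 303, 348 and 309 CPM with BCAA, against 270, 377 and 381 CPM with vehicle, so vehicle replicate 1 was its lowest library and the others its highest. In the fit of all 6 libraries its log2 fold change was -0.10 (SE 0.12, adjusted p = 0.790).

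**Figure D4:**
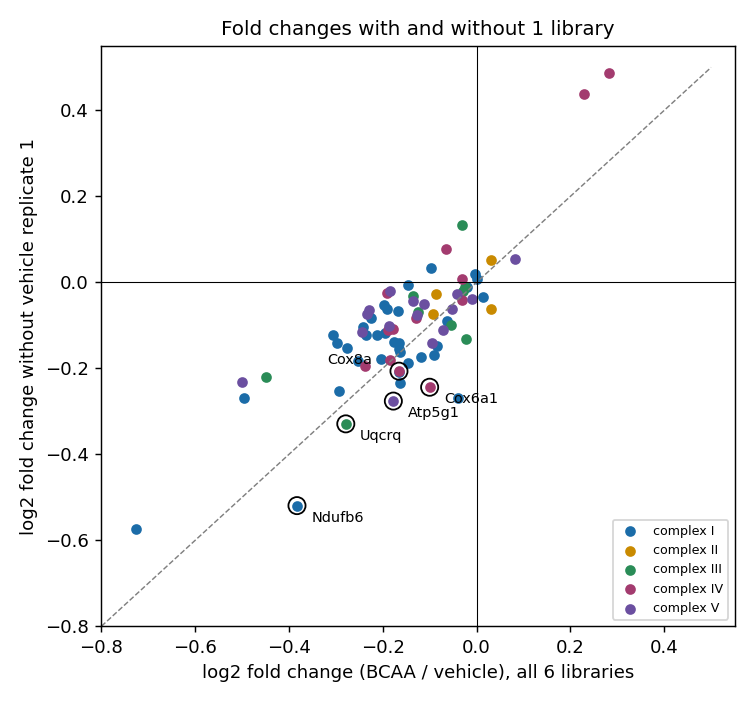
Log2 fold change (BCAA over vehicle) of each of 77 tested members with all 6 libraries (x axis) and without vehicle replicate 1 (y axis), coloured by complex; the dashed line marks equal values. The 5 ringed genes passed an adjusted p of 0.05 in the edgeR fit on the y axis and not in the edgeR fit on the x axis. Most points lie above the line.

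Other gene groups also differed between the libraries, and not all of them moved with vehicle replicate 1. The 83 cytosolic ribosomal protein genes tested had a median log2 fold change of -0.16, and 75 were lower in sign, where 49.2% of all genes were. At an unadjusted p under 0.05, 27 were lower and 1 higher, against 5.84% and 5.95% of all genes. Vehicle replicate 1 was highest for 52, against 23.6%. The 70 mitochondrial ribosomal protein genes tested had a median of -0.11, with 58 lower in sign, and 7 lower and 0 higher at that p. Without BCAA replicate 1 or 2, 13 cytosolic and 4 mitochondrial ribosomal genes were lower at that p, where 4.03% or 4.32% of all genes were. Without vehicle replicate 1 the medians were -0.11 for the cytosolic and -0.08 for the mitochondrial ribosomal genes. Of the smooth muscle and pericyte markers tested all 7 were lower in sign, with Tagln (-0.61, adjusted p = 0.000357) and Acta2 (-0.86, adjusted p = 0.000586) called lower. These markers were summed at 653 to 681 CPM with BCAA, against 941 to 1012 CPM with vehicle. Their median was -0.33, or -0.35 without vehicle replicate 1. The 6 leukocyte markers tested had a median of 0.09, with 5 higher in sign and Lyz2 lower (-0.20, SE 0.08, adjusted p = 0.345). Their sum, 677 to 729 CPM with BCAA, against 730 to 892 CPM with vehicle, was mostly Lyz2, at 593 to 643 CPM with BCAA, against 651 to 811 CPM with vehicle. Their part in the result was not tested.

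Of 6 subunits, carriers and other proteins next to the chain that the symbol rule leaves out, 0 were called. At an unadjusted p under 0.05, 2 were lower, against 5.84% of all genes. Among the 6 is Foxred1, an assembly factor that is also counted with the complex I factors below. Cycs, cytochrome c itself, was at 49.3, 48.1 and 47.1 CPM in the BCAA libraries, against 57.5, 58.1 and 59.1 CPM in the vehicle libraries (log2 fold change -0.27, SE 0.07, adjusted p = 0.144). The groups were clearly apart, with vehicle replicate 1 among the other vehicle values. Atpif1, the inhibitor of ATP hydrolysis by ATP synthase, was at 123, 124 and 123 CPM with BCAA, against 160, 146 and 136 CPM with vehicle (-0.25, SE 0.07, adjusted p = 0.163), also without overlap. The 13 mitochondrially encoded genes had a median of -0.05, with 0 at an unadjusted p under 0.05, and vehicle replicate 1 was highest for 10 of them. Without that library the direction turned, with a median of 0.16, all 13 higher in sign and 5 higher at that p. Their summed level differed by 4.94% with BCAA, or by 18.6% without vehicle replicate 1. Mt-co1 made up the largest part of that sum, with a mean of 32597 of 58162 CPM with BCAA and 28782 of 55424 CPM with vehicle. Over all libraries Mt-co1 differed by more CPM than the sum did. Mt-co1 was at 30367, 32311 and 35114 CPM with BCAA, against 34709, 26075 and 25563 CPM with vehicle (0.18, SE 0.11, adjusted p = 0.530), with overlap. Mt-nd5 was next (-0.13, SE 0.10, adjusted p = 0.643).

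Assembly factors gave 0 calls in the fit of all libraries. Tmem70 is counted both for complex I and for ATP synthase. For complex I, 16 factors had a median log2 fold change of -0.04 (0.04 without vehicle replicate 1) with 1 lower at an unadjusted p under 0.05, Tmem261 (-0.31, SE 0.12, adjusted p = 0.345), followed by Acad9 (0.22, SE 0.11, adjusted p = 0.475). For complexes II and III, 9 factors had a median of -0.08 with 0 at that p, the smallest being those of Sdhaf4 (-0.37, SE 0.19) and Uqcc3 (-0.19, SE 0.12). For complex IV, 21 factors had a median of -0.04, with 4 lower and 2 higher at that p, or 1 lower and 0 higher without BCAA replicate 2. Of all genes 5.84% were lower and 5.95% higher at that p in the fit of all libraries. Cox17, the copper chaperone, was at 46.6, 46.9 and 41.4 CPM with BCAA, against 58.9, 54.7 and 53.0 CPM with vehicle (-0.30, SE 0.08, adjusted p = 0.161), while Higd1a, a hypoxia-induced factor, was at 154, 167 and 175 CPM with BCAA, against 134, 150 and 151 CPM with vehicle (0.19, SE 0.07, adjusted p = 0.330). In both the groups did not overlap. For ATP synthase, 5 factors had a median of -0.06 and 0 at that p, with Tmem242 (-0.17, SE 0.10) and Atpaf1 (-0.06, SE 0.12) first.

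Coenzyme Q synthesis genes (13 tested) had a median of 0.05 and 0 at an unadjusted p under 0.05, with Coq4 (-0.37, SE 0.18) and Pdss1 (0.29, SE 0.18) first. Among 14 transcription factors and coactivators of respiratory genes the median was -0.03, with 1 higher and 0 lower at that p. Hif1a, the oxygen-regulated factor, was at 835, 773 and 805 CPM in the BCAA libraries, against 719, 646 and 677 CPM in the vehicle libraries (0.24, SE 0.06, adjusted p = 0.138), without overlap. Myc was at 76.9, 82.6 and 80 CPM with BCAA, against 84.1, 93.2 and 85.7 CPM with vehicle (-0.14, SE 0.07, adjusted p = 0.490), also without overlap. In the fit of all 6 libraries 0 genes of these pathway lists passed the adjusted threshold of edgeR's test. When vehicle replicate 1 was left out, Cycs (log2 fold change -0.28, adjusted p = 0.0330) and Cox14 of the complex IV factors (-0.35, adjusted p = 0.0113) were called lower, and Hif1a (0.28, adjusted p = 0.00348), Mt-co1 (0.34, adjusted p = 0.00349) and Mt-nd2 (0.23, adjusted p = 0.0233) were called higher; Cox14 and Mt-nd2 are named after their values were seen.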

How the data were processed

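Messenger RNA of 6 libraries (3 BCAA, 3 vehicle) was counted per gene symbol, and the deposited values are raw read counts for each library. Per the submitters' processing notes, the tools were Trimmomatic, FastQC, STAR and HTSeq with build rn6; their versions, the annotation and the strand setting were not given in the sources used here. Reads of near-identical copies, such as Ndufa10 and Ndufa10l1 or processed pseudogenes, may therefore be split or lost, and overlapping genes cannot be told apart by strand. Totals ran from 12725344 to 15739731 counts. No 2 libraries agreed within sampling noise (chi-square per degree of freedom 2.65 to 18.1 over all pairs).

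The test was edgeR 4.0.16 (R 4.3.3; quasi-likelihood, robust, TMM, filterByExpr with minimum count 10 and minimum total 15) with group as the only term, Benjamini-Hochberg adjusted over 12298 genes and called under 0.05. SE is the log2 fold change divided by the square root of F. CPM uses TMM-scaled totals. The fit was tested on simulated data, with changed genes drawn from all genes tested. It called 24% of genes changed 1.25-fold, 74% of those changed 1.5-fold and 96% of those changed 3-fold. A lack of calls among small differences therefore does not show that the groups are equal. Alternatives were DESeq2 1.42.0, no TMM scaling, no low-count filter, a replicate block, each library left out in turn, and other memberships. Named genes were those with the smallest p in each complex, core subunits, tissue-type isoforms, and the leading 2 of every pathway list by p; others are marked, and 1 member is counted but not reported by name here. The members and lists were chosen with earlier results of these data known, and the classes within a complex (core, supernumerary, F1 head, stalk) after values were seen. Of 163 list symbols 156 were found, 6 of them under another symbol. Promoters were matched by symbol or synonym to RefSeq (GRCr8; 74 of 87 members). Protein lengths and identities were not used here, so fold change by length and paralog identity were not computed.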

Additional observations from a re-analysis of the deposited data

How the results depend on the processing

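Of 310 values of 31 named genes under 10 alternatives, 295 kept their direction and their side of the threshold, 5 gained a call (all in the direction of the fit of all libraries) and 10 changed sign. Sign changes without TMM scaling were Ndufs1 (0.0090) and Atp5g2 (0.0195). With 1 library left out, ranges that crossed 0 were Sdhd -0.0032 to 0.0629, Sdha -0.0615 to 0.1201, Ndufs1 -0.0580 to 0.0258, Cox4i1 -0.0829 to 0.0069, Cox6b2 -0.1028 to 0.0767 and Atp5g2 -0.0389 to 0.0067. Over all genes 28 were called, with 144 by DESeq2, 124 when every gene was kept, and 7 to 491 with 1 library left out, the highest without vehicle replicate 1. Members called lower were 0, with 1 by DESeq2 and 0 to 5 with 1 library left out. Members lower at an unadjusted p under 0.05 were 23, against 5.84% of all genes. When TMM was not used they were 14, against 3.85% (all-gene median then 0.03). With 1 library left out they were 13 to 27. They were 14 without BCAA replicate 1 (4.03% of all genes), 13 without BCAA replicate 2 (4.32%) and 27 without vehicle replicate 2 (4.85%). Members higher at that p were 0, or 0 to 2. Members lower in sign were 64 to 75, with 64 when TMM was not used, against 42.0% of all genes. The median over the members lay between -0.16 and -0.10, that of complex V was -0.13, with -0.18 to -0.07 with 1 library left out, and that of complex III was -0.06, with -0.1106 to -0.0363 with 1 library left out. The cause of these changes was not tested. Blocking on the replicate number gave 6 called genes, 0 of them members, and a member median of -0.14. The labels do not say that equal numbers mark pairs, so the main fit did not pair them. Deviations of equal numbers correlated at -0.066, 0.105 and -0.146, which cannot decide this with 3 libraries in a group. Totals were close between equal numbers: 14482260 (BCAA) and 14484051 (vehicle) for replicate 1, 15654060 and 15739731 for 2, 12802663 and 12725344 for 3. Whether equal numbers were handled together was not tested. Depth limits Ndufa12, Cox4i2, Cox7a2 and Atp5s, all under 10 CPM.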

Other observations

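Several subunits that the complexes are known to need were listed near 0, and they were chosen after their values were seen. Ndufa1 of complex I had 1, 0 and 0 counts in BCAA libraries 1 to 3 and 0 in each vehicle library. Atp5f1, subunit b of the ATP synthase stalk, had 4, 3 and 5 counts in the BCAA libraries, against 3, 8 and 0 in the vehicle libraries. Cox7a2, the common form of subunit 7a, had 31, 48 and 25 counts with BCAA, against 36, 27 and 23 with vehicle, while the muscle form Cox7a1 had 0. These are counts of the table and not levels in the cells, and how reads of these genes were assigned was not tested.

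The complex I paralogs had different amounts of counts. Ndufa4l2 made up 18.7% ± 1.58 of the Ndufa4 and Ndufa4l2 counts with BCAA and 21.9% ± 1.08 with vehicle (SD, n = 3 each), at 17.6%, 20.5% and 18.0% in BCAA libraries 1 to 3 and 22.3%, 22.7% and 20.7% in vehicle libraries 1 to 3. The groups did not overlap, by a narrow gap, and the share is not corrected for transcript length. Ndufb4l1 had 1 count in 1 library and Ndufa10l1 was at 14.8 to 18.4 CPM with BCAA, against 17.3 to 19.3 CPM with vehicle.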
